A study of Homo sapiens with 2 samples.

Results

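The genes described here are 48 genes of DNA replication and nucleotide supply, measured in H2228 cells that were left untreated or given interleukin 4 (IL4). They were listed by function, from the origin recognition complex through the MCM helicase and the replicative polymerases to the enzymes that make deoxynucleotides. This list and the gene lists set beside it were chosen with earlier results of these data known. All 48 genes were measured, among 19775 genes in all. H2228 cells come from a human lung adenocarcinoma and harbour variant 3 of the EML4-ALK fusion, and IL4 is a cytokine that signals through JAK kinases and STAT6. Untreated and IL4-treated cells were each profiled on a single Affymetrix expression array (U133 Plus 2.0). The series description gives 100 ng/mL IL4 for 30 min. The labels of both samples also mention transfection with EML4-ALK plasmids, siRNAs or negative controls for 48 h, and whether that applies to these cells is not stated, so both arrays may or may not come from transfected cells. With 1 array per condition there were no replicates and no test, and each difference below is a difference between 2 arrays.

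A cell prepares to copy its DNA by loading the MCM helicase onto origins, which the origin recognition complex marks and which CDC6 and CDT1 make ready. Kinases and the GINS complex then start the helicase, and polymerases held by the PCNA clamp copy both strands while ribonucleotide reductase, thymidylate synthase and thymidine kinase supply the building blocks. Many of these genes are known targets of E2F transcription factors, which drive entry into S phase, and their mRNAs are abundant in proliferating tumour cells.

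The deposited values are log2 expression values, and a value can be compared between the arrays within a gene but not between genes. Of several probe sets of a gene, the brightest by the mean of both arrays was used, and the log2 difference was the IL4 value minus the untreated value. Genes count as higher or lower here from 1.5-fold on, which is 0.58 on the log2 scale. All 48 genes had a mean level above 5.03, the median of all probe sets. All 10 markers of lung epithelium reached that median, with mean levels from 6.22 for SFTPB to 11.79 for KRT19, and 7 of them had a difference above 0. The adhesion gene CDH1 was 1.68-fold higher with IL4, at 10.18 and 10.92, and NKX2-1, a transcription factor of lung epithelium, was 1.96-fold lower, at 7.88 and 6.91. Of 28 measured markers of leukocytes, fibroblasts and endothelium, 9 reached the median of all probe sets. The mean log2 value of all 28 markers was 4.65 in untreated cells and 4.79 with IL4. The leukocyte marker PTPRC lay at 2.50 and 2.37 and the endothelial marker CDH5 at 2.93 on both arrays, whereas the collagen gene COL1A1 lay at 10.82 and 11.23. The difference between the 3' and the 5' control probe sets, a sign of RNA quality, moved by -0.30 for ACTB and by -0.015 for GAPDH. The part of these markers and controls in the results was not tested.

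The replication genes had differences below 0 almost throughout, mostly of less than 1.5-fold. Of the 48 genes, 47 had a log2 difference below 0, and 14 (29.2%) were at least 1.5-fold lower, against 4.39% of all genes. None was at least 1.5-fold higher, against 3.21% of all genes. After a loess correction of the difference on the level, 46 genes were below 0, with RRM2 also above it. Then 10 of the 14 genes were still past 1.5-fold, whereas CDT1, MCM3, RFC1 and POLE2 fell short. POLE2, at -0.58494, and CDC6, at -0.58514, lay on either side of the level of 0.58496 in size, with almost no distance from it. The median log2 difference of the 48 genes was -0.38, a 1.31-fold decrease, and the median of all genes was 0. The differences were modest in size, since ORC1 alone was at least 2-fold lower and no gene was 2-fold higher, against 0.89% and 1.11% of all genes, and the middle part of the list, from the lower to the upper quartile, ran from -0.62 to -0.29. In RNA from whole cultures, fewer cells in S phase and less of these mRNAs per cell cannot be told apart.

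The replication genes were also set beside other genes of similar level, meaning 6213 genes whose mean of both arrays lay between 7.08 and 10.58, the 10th and 90th percentiles of the replication genes. Of these genes, 6.79% were at least 1.5-fold lower and 5.65% at least 1.5-fold higher, and their median log2 difference was -0.061. A difference below 0 was found in 58% of them and in 48.1% of all genes. At 1.2-fold, 37 of the 48 replication genes (77.1%) had at least that decrease, against 24.9% of the genes of similar level and 17.6% of all genes. Nearly every gene of the list thus had a difference below 0, and most were short of 1.5-fold. Across the 48 genes the log2 difference had a Pearson correlation of 0.020 and a Spearman correlation of -0.097 with the mean level, a description over genes that share the same 2 arrays.

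**Figure D1:**
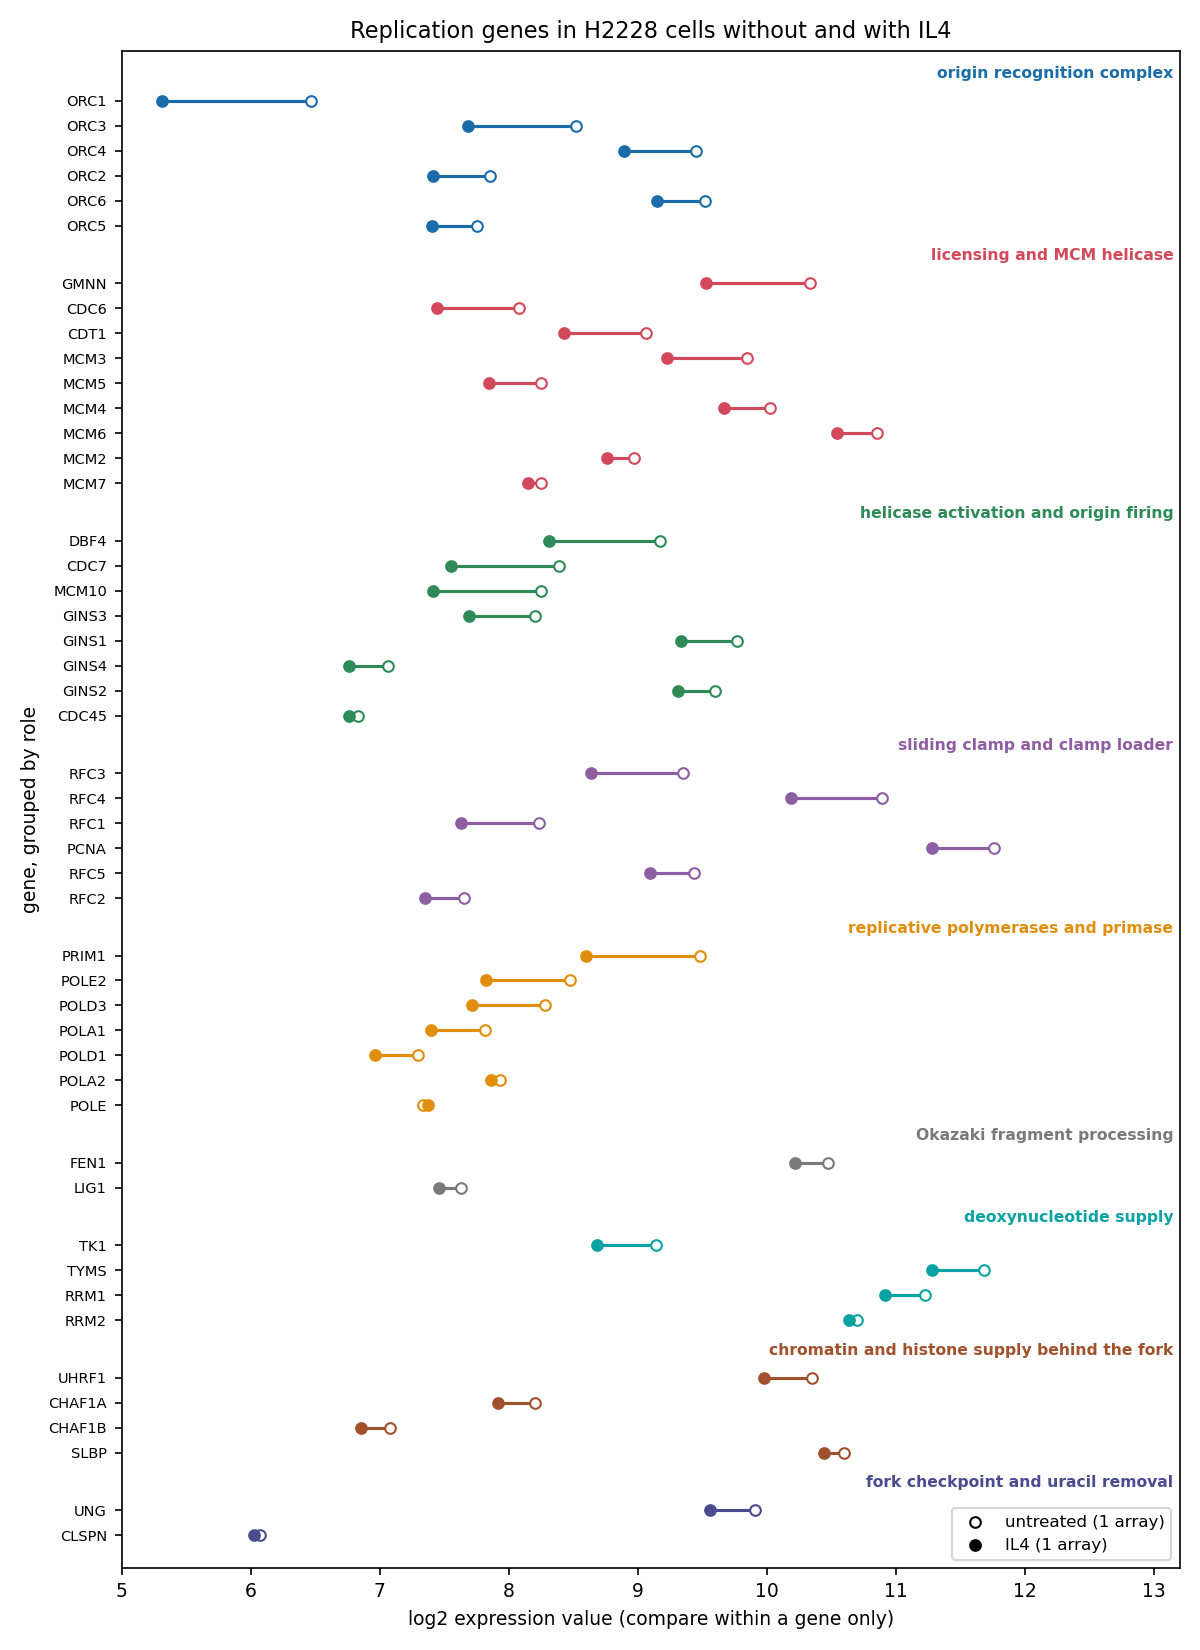
Log2 expression values (x axis) of the 48 replication genes (rows, grouped by role) on the untreated array (open circles) and on the IL4 array (filled circles); levels of different genes are not comparable. The filled circle lies to the left of the open circle in 47 genes, with the longest line for ORC1 at 6.47 and 5.31, and POLE is the exception.

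**Figure D2:**
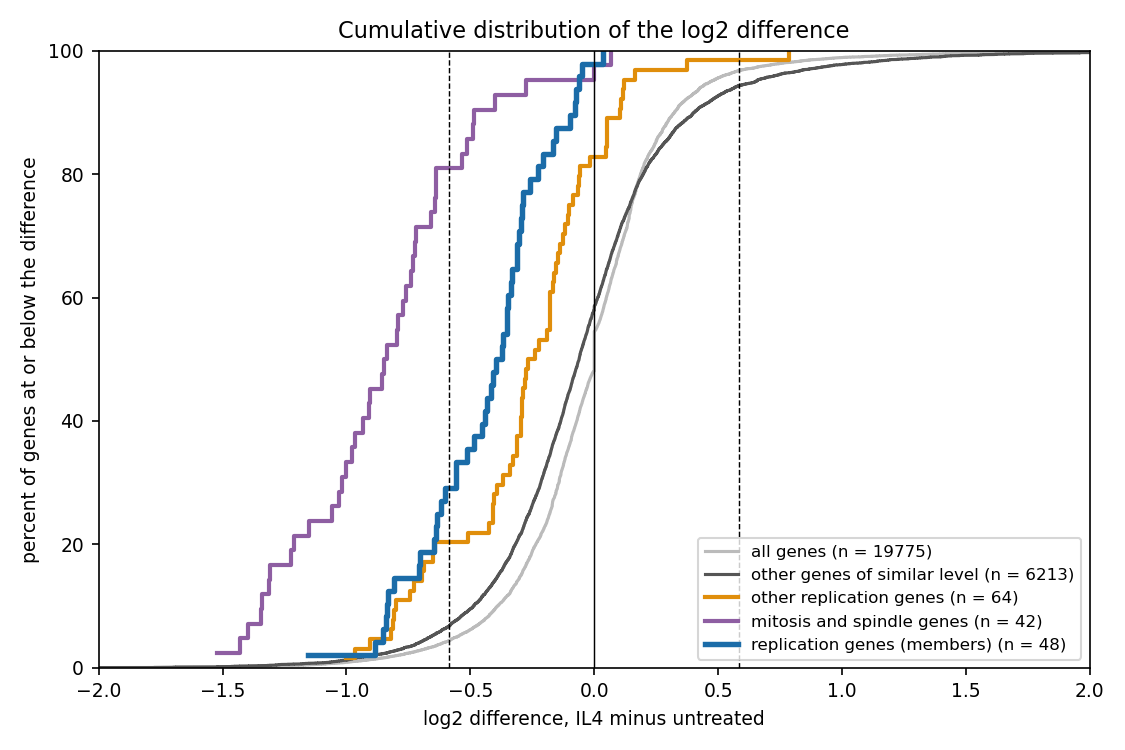
Percent of genes (y axis) at or below a given log2 difference between IL4-treated and untreated cells (x axis) for the 48 replication genes, 64 other replication genes, 42 mitosis genes, 6213 other genes of similar level and all 19775 genes; dashed lines mark 1.5-fold. The curve of the replication genes lies to the left of those of all genes and of genes of similar level over most of its course, with 29.2% of genes at the lower dashed line, and the mitosis curve lies further left.

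The promoters of the replication genes held E2F and NF-Y letters more often than other promoters. The genes were listed by function and many are known E2F targets, so the E2F share describes the list and not an effect of IL4. Windows from 250 bases before to 50 bases after the transcription start were taken from RefSeq (GRCh38.p14) for 44 of the genes, and some genes had several starts, so there were 58 windows. MCM4, MCM5, GINS4 and POLD3 had no window. The E2F letters searched on both strands were TTTCGCGC, TTTGGCGC, TTTCCCGC and TTTGCCGC, some of which can overlap one another on opposite strands. They were found in 24 of the 58 windows (41.4%), against 3.31% of all 35116 windows and 4.07% of the 21490 windows of genes on the array. Among the genes at least 1.5-fold lower, 8 of 16 windows held them, and among the other replication genes 16 of 42 did. The letters CCAAT, which NF-Y binds, were in 56.9% of the windows of replication genes, against 34.6% of all windows. Here the genes at least 1.5-fold lower had them in 8 of 16 windows and the other replication genes in 25 of 42. Neither split was tested. The 4 sequences below are those of the genes with the largest decreases whose window held the E2F letters, shown in capitals, 5' to 3' on the strand of the gene.
CDC7: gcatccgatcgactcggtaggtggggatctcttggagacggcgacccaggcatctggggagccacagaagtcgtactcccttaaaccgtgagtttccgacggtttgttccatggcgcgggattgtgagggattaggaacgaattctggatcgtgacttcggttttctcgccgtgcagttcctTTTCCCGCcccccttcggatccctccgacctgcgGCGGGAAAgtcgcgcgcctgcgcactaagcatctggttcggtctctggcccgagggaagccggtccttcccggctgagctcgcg
ORC3: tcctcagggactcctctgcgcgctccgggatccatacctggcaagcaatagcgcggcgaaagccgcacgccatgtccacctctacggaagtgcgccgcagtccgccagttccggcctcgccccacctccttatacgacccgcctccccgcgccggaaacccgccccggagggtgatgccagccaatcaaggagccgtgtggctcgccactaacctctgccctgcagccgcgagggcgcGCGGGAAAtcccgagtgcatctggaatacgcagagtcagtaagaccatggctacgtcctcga
GMNN: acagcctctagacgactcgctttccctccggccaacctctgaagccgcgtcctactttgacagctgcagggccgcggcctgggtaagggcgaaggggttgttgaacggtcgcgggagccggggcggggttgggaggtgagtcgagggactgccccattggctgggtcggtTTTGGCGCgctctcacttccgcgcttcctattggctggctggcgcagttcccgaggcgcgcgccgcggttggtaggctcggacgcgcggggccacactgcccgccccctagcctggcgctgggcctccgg
RFC3: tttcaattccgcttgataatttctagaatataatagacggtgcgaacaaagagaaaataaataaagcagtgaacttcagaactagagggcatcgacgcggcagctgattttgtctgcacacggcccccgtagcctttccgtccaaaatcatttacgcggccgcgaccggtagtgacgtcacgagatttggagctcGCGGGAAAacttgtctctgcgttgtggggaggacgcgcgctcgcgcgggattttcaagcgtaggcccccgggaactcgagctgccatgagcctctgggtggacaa
The CDC7 window (chr1:91500862-91501161, plus strand) held the letters at 2 places, with first bases at -68 and -34 from the start. In ORC3 (chr6:87589885-87590184, plus strand), GMNN (chr6:24775163-24775462, plus strand) and RFC3 (chr13:33817899-33818198, plus strand) they began at -12, -80 and -55. CDC7 and GMNN each had another start whose window held none. The windows of ORC1, PRIM1, DBF4, MCM10, RFC4 and RFC1, which were also at least 1.5-fold lower, held none of these letters. A match is a description of the sequence and does not show binding.

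The origin recognition complex, which marks the sites where replication starts, had 2 of 6 subunits at least 1.5-fold lower, beside 4.39% of all genes. The other subunits had differences below 0 that did not pass. ORC1, the subunit whose level is known to change with the cell cycle, had log2 values of 6.47 without IL4 and 5.31 with it, a 2.23-fold decrease. This was the largest difference of the list, and 94 of 19775 genes had a lower one. ORC1 had 1 probe set and the lowest mean level of the 48 genes, 5.89. That level was below the range of the genes of similar level, and a floor at the 75th percentile of all probe sets, 6.75, left ORC1 out. ORC3 was at 8.52 and 7.68, a 1.79-fold decrease. ORC4, at 9.45 and 8.89, was just short of 1.5-fold with a log2 difference of -0.56, while its second probe set, at 6.59 and 5.96, had -0.64. ORC2, ORC6 and ORC5 had log2 differences of -0.44, -0.37 and -0.35. The median of the 6 subunits was -0.50.

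Of the factors that control the loading of the helicase, CDC6, CDT1 and GMNN were all at least 1.5-fold lower. CDC6, an ATPase that joins the origin recognition complex to recruit the helicase, was at 8.08 in untreated cells and 7.44 with IL4, a log2 difference of -0.64, and its second probe set gave -0.63. CDT1, which brings the helicase to the origin, was at 9.06 and 8.43, a log2 difference of -0.63. GMNN encodes geminin, the inhibitor of CDT1, and was at 10.34 and 9.53, which is 1.75-fold lower. The loader and its inhibitor were thus lower on the same array. The second probe set of CDT1, at 6.72 and 6.29, had a log2 difference of -0.43, less than 1.5-fold.

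The MCM helicase itself, a ring of MCM2 to MCM7 that unwinds the DNA, had 1 of 6 subunits at least 1.5-fold lower. A count of 1 in so small a group says little beside 4.39% of all genes. The other subunits had smaller differences below 0. MCM3 was at 9.85 in untreated cells and 9.23 with IL4, a 1.54-fold decrease, and was the only subunit of the ring past 1.5-fold. MCM5, MCM4, MCM6 and MCM2 had log2 differences of -0.40, -0.35, -0.31 and -0.21. MCM7 had the smallest, -0.097, and its second probe set had a log2 difference of 0.056. The subunits of the ring therefore ran from nearly equal to 1.54-fold lower, with a median log2 difference of -0.33. Of the 4 further probe sets of MCM4, 3 had log2 differences from -0.43 to -0.22, and the dimmest, at 5.33 and 5.37, had 0.046.

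Genes that start the loaded helicase included some of the larger decreases. DBF4 and CDC7 together form the kinase that phosphorylates the MCM ring at the start of replication. DBF4 was at 9.17 in untreated cells and 8.32 with IL4, a 1.81-fold decrease. CDC7 was at 8.39 and 7.55, a 1.79-fold decrease, so both subunits of the kinase were lower by nearly the same amount. MCM10, which helps the helicase to start moving, was at 8.25 and 7.42, a 1.78-fold decrease, and its other probe sets had log2 differences of -0.69 and -0.91. The 4 GINS subunits, which complete the active helicase, had log2 differences between -0.51 for GINS3 and -0.29 for GINS2, none of them past 1.5-fold. CDC45, the third part of the active helicase, was at 6.84 and 6.76, a log2 difference of -0.072. Of the 8 genes of this step, 3 were at least 1.5-fold lower and none was higher, beside 4.39% and 3.21% of all genes.

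Of the 6 genes of the sliding clamp and its loader, 3 were at least 1.5-fold lower, all of them subunits of the loader. Of all genes, 4.39% were lower by that much. PCNA, the clamp that holds polymerases on DNA, was at 11.76 in untreated cells and 11.28 with IL4, a log2 difference of -0.48. Replication factor C, the complex of RFC1 to RFC5 that opens the clamp and places it on DNA, had 3 of 5 subunits at least 1.5-fold lower. RFC3 was at 9.35 and 8.64, a 1.63-fold decrease, and its further probe sets had log2 differences of -0.75 each. RFC4 was at 10.89 and 10.19, a 1.63-fold decrease. RFC1, the large subunit, was at 8.23 and 7.63, a log2 difference of -0.60 that lay closest to the 1.5-fold level among the genes past it. RFC5 and RFC2 had smaller log2 differences of -0.34 and -0.30. The probe sets of RFC5 did not move the same way, as one of them was at 8.87 without IL4 and at 9.16 with it.

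The polymerases and primase had the widest range of the roles, with log2 differences from -0.89 to 0.034. PRIM1, the catalytic subunit of primase that makes the RNA primers, was at 9.48 in untreated cells and 8.60 with IL4, a 1.85-fold decrease and the second largest of the list. POLA1, the catalytic subunit of polymerase alpha that extends these primers, was at 7.81 and 7.40, a log2 difference of -0.42, while its partner POLA2 had -0.076. For polymerase epsilon, the accessory subunit POLE2 was at 8.47 and 7.83, a 1.56-fold decrease, whereas the catalytic subunit POLE was at 7.34 and 7.37. The log2 difference of POLE, 0.034, was the only one above 0 in the list. For polymerase delta, POLD3 was at 8.28 and 7.72, a log2 difference of -0.56 just short of 1.5-fold, and the catalytic subunit POLD1 had -0.33. In each of polymerases alpha, delta and epsilon the subunits thus had unequal differences, and among the subunits on the list the catalytic one had the smaller difference in delta and epsilon. FEN1 and LIG1, which trim and join the fragments of the lagging strand, had log2 differences of -0.26 and -0.17.

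None of the 4 genes of deoxynucleotide supply passed 1.5-fold. TK1, the thymidine kinase of proliferating cells, was at 9.14 in untreated cells and 8.69 with IL4, a log2 difference of -0.45. TYMS, which makes thymidylate, was at 11.69 and 11.28, a log2 difference of -0.41. The ribonucleotide reductase subunits RRM1 and RRM2, which turn ribonucleotides into deoxynucleotides, had log2 differences of -0.31 and -0.062. RRM2 had a second probe set at nearly the same level, at 10.72 and 10.46, with -0.27. All 4 differences were below 0, except that RRM2 was above it after the loess correction, and none of the probe sets of these genes was past 1.5-fold.

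Genes that act on chromatin behind the fork and at stalled forks had small differences. UHRF1, which helps to copy DNA methylation, was at 10.35 in untreated cells and 9.98 with IL4, a log2 difference of -0.37. CHAF1A and CHAF1B, subunits of the chromatin assembly factor that places histones on new DNA, had log2 differences of -0.29 and -0.23, and SLBP, which binds histone mRNAs, had -0.15. UNG, which removes uracil from DNA, was at 9.91 and 9.56, a log2 difference of -0.35, and CLSPN, which passes the signal of a stalled fork to the checkpoint, had -0.051. All 6 differences were below 0 and none passed 1.5-fold.

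By role, the share of genes at least 1.5-fold lower was thus 3 of 6 for the clamp and its loader, 4 of 9 for licensing and the MCM helicase, 3 of 8 for helicase activation, 2 of 6 for the origin recognition complex and 2 of 7 for polymerases and primase. It was 0 of 12 for the other roles together, whose medians ran from -0.36 for deoxynucleotide supply to -0.20 for the pair of UNG and CLSPN. Of all genes 4.39% were at least 1.5-fold lower, and of the genes of similar level 6.79%. The count of 0 of 12 is near these shares. The role groups are small, and whether they differ was not tested.

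Further probe sets of the same genes gave a check within the same arrays, although they are no replicates. Of the 48 genes, 26 had more than 1 probe set. Of 32 further probe sets that reached the median of all probe sets, 27 had a difference below 0, 4 had one above 0 and 1 had the same value on both arrays. Among the 14 genes at least 1.5-fold lower, 5 had further probe sets at that level, and 5 of these 6 probe sets were also at least 1.5-fold lower, the exception being that of CDT1. Over the 6056 genes with 2 or more probe sets at that level, the 2 brightest differed from each other with a standard deviation of 0.25 in their log2 differences. The log2 differences of POLE, CLSPN, RRM2, CDC45, POLA2, MCM7, SLBP, LIG1, MCM2 and CHAF1B were smaller than this. That standard deviation holds no variation between cultures, so it does not show that the larger differences exceed such variation.

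Further genes of replication, which were not in the list, included fork proteins, enzymes of nucleotide synthesis and chromatin assembly genes. Of 64 further genes, 13 (20.3%) were at least 1.5-fold lower and 1 (1.56%) was at least 1.5-fold higher, beside 4.39% and 3.21% of all genes. The median log2 difference of the 64 genes was -0.25. Of 30 fork and origin firing proteins, 9 (30.0%) were lower and 0 were higher. DNA2, a nuclease and helicase of lagging strand processing, was at 7.32 in untreated cells and 6.32 with IL4. WDHD1, which links the helicase to polymerase alpha, was at 7.95 and 6.99. TOP2A, which untangles DNA, was at 11.99 and 11.09. Like its partner PRIM1, the primase subunit PRIM2 was lower, at 6.95 and 6.22. Of the remaining subunits of polymerases delta and epsilon, POLD2, POLD4, POLE3 and POLE4 had log2 differences of -0.12, 0.054, -0.28 and -0.18.
Of 27 genes of nucleotide synthesis, 2 (7.41%) were lower and 1 (3.70%) was higher. Beside them stood 4.39% and 3.21% of all genes, and 6.79% and 5.65% of the genes of similar level. Both counts for nucleotide synthesis were thus near the background. The lower genes were DCK, which salvages deoxycytidine, at 8.35 and 7.66, and RRM2B, the p53-responsive subunit of ribonucleotide reductase, at 7.45 and 6.63. CTPS1, which makes CTP, was the higher gene, at 8.12 without IL4 and at 8.91 with it. Of 7 genes of chromatin assembly, 2 (28.6%) were lower, beside 4.39% of all genes. These were ASF1A, a histone chaperone, and NPAT, an activator of histone genes, with log2 differences of -0.81 and -0.74.

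Other cell cycle genes gave a scale for these differences, from lists written with earlier results of these data known. Of 42 mitosis and spindle genes, 34 (81.0%) were at least 1.5-fold lower, against 4.39% of all genes. Their median log2 difference was -0.84, a 1.79-fold decrease against 1.31-fold for the replication genes. The largest decreases were in NDC80, a part of the kinetochore, and KIF11, a spindle motor, with log2 differences of -1.52 and -1.43. Of 31 regulators of the passage from G1 to S phase, 8 (25.8%) were lower and 4 (12.9%) were higher, with a median of 0. Of all genes, 4.39% were lower and 3.21% higher. Among the 28 regulators that reached the median of all probe sets, 7 were lower and 4 were higher. The lower regulators included E2F8, a repressor of E2F targets, with a log2 difference of -1.52 and CCNA2, the cyclin of S phase, with -1.03. Brakes on the passage were among them too, with -1.07 for CDKN1B, which encodes the CDK inhibitor p27, -0.92 for RBL1, a relative of RB1, and -0.91 for the CDK inhibitor gene CDKN2D. CDKN2D was dim, at 5.57 in untreated cells and 4.66 with IL4, close to 5.03, the median of all probe sets. SKP2, which marks p27 for degradation, had -0.90. The higher regulators were CDKN1A, which encodes the CDK inhibitor p21, the E2F repressor E2F7, the G1 kinase CDK6 and the cyclin E gene CCNE1, with log2 differences of 1.47, 1.30, 1.13 and 0.74. The median of the replication genes lay between the medians of these lists, and whether the lists differ was not tested.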

How the data were processed

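RNA of untreated and IL4-treated H2228 cells was measured on 1 array per condition. The authors deposited a log2 expression value for each probe set. RMA, which corrects background and normalizes between arrays, is named in the submitters' notes with no version, and GCOS 1.4 in the methods for the raw data. Scanner files were not analysed here. The number of arrays limits the precision.

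Of 41097 probe sets annotated to a single gene, 41043 had a gene ID found in RefSeq (GRCh38.p14) and took the symbol given there, changed or not. Some listed genes are not reported here. The genes and lists were chosen with earlier results of these data known. All 48 genes could be named, in full where at least 1.5-fold different or largest in a role without such a gene, and from other lists at most 6 increases and 6 decreases past 1.5-fold. The further subunits of polymerases delta and epsilon and the markers named were chosen after their values were seen. Counting was tested on simulated data with little noise and planted changes well past the 1.5-fold level. That checks the counting itself and not the precision of the counts reported here. Alternatives were other fold levels, floors on the level, other ways to represent a gene, loess correction (fraction 0.3), quantile normalization and centring. Software was numpy 2.4.6, pandas 2.3.3, statsmodels 0.14.6 and matplotlib 3.10.9 under Python 3.11.15.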

Additional observations from a re-analysis of the deposited data

How the results depend on the processing

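The count of replication genes at least 1.5-fold lower stayed between 10 and 14 under every alternative that kept the 1.5-fold level, and no replication gene was at least 1.5-fold higher under any of them. The share of all genes was not counted again under these alternatives. The count of lower replication genes was 1 at the 2-fold level and 37 at the 1.2-fold level. At the 2-fold level the other replication genes held 1 lower and 0 higher genes, the G1/S regulators 3 lower and 3 higher and the mitosis genes 13 lower and 0 higher, and at the 1.2-fold level the other replication genes held 32 lower and 2 higher. The fold level itself sets these counts. With probe sets able to bind several transcripts left out, 35 genes were measured, 9 of the 14 were still past 1.5-fold, RFC1 had -0.44, and ORC3, CDT1, GMNN and DBF4 had no probe set left. GINS2 then stood above 0, at 0.0064. With probe sets of a gene averaged, ORC4 was past 1.5-fold, while CDT1 and RFC1 were not, at -0.53 and -0.56, and RFC1 also fell short after quantile normalization, at -0.56. No paired analysis was possible because each condition had 1 array, and no replicate could be left out for the same reason.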

Other observations

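Exactly the same value stood on both arrays for 4528 of 54675 probe sets (8.28%), 854 of which reached the median of all probe sets. By gene, 1275 of 19775 (6.45%) had equal values, and none of the 48 replication genes was among them. Further probe sets of GINS2 and POLA2 did have equal values, at 5.40 and 4.66.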
